A study of Homo sapiens with 24 samples.

Results

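HEPACAM2, an immunoglobulin-superfamily membrane protein related to the adhesion molecule HEPACAM, was overexpressed in the human lung cancer lines A549 and H1299, and the response of each gene was compared between the lines. The quantity described is a difference of 2 changes, namely the change under overexpression in A549 minus the change in H1299. Each change was the mean of the overexpressing libraries minus the mean of the control libraries on the log2(normalized count + 1) scale. Genes were kept where the mean reached 10 normalized counts in at least 1 group of each line. This left 14578 of the 18538 genes listed for both lines, 11894 of them protein coding, and no measured change entered the choice. Another 1086 genes that passed in A549 were too low in H1299 and 1043 were not in the H1299 table. In the other direction the numbers were 897 and 717.

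Of the series' 24 libraries, 12 entered the comparison, 3 in each of 4 groups. These were A549 controls and H1299 controls, both with the genotype label WT, and A549 and H1299 cells labelled as overexpressing HEPACAM2. A549 is a lung adenocarcinoma line with epithelial features and an inactivated KEAP1, which leaves the transcription factor NRF2 active, and H1299 is a non-small cell lung carcinoma line from a lymph node metastasis that lacks p53 protein. Both lines came from ATCC. For the vector, its promoter, what the control cells carried and the number of clones, details were not given in the sources used here. In each group the design text calls the 3 replicates independent, so p-values measure the spread between them.

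Read totals ranged from 16358272 to 29838960 in A549 and from 12704476 to 20332419 in H1299. The H1299 libraries varied more than those of A549, with a median SD over genes of 0.15 in both H1299 groups and 0.08 in both A549 groups on the log2 scale. The H1299 libraries numbered 1 stood apart from the others. On a scale where the mean of the other controls is 0 and that of the other overexpressing libraries is 1, the H1299 control 1 lay at 0.34 and the overexpressing library 1 at 0.68. The other controls of both lines lay between -0.0073 and 0.12 and the other overexpressing libraries between 0.86 and 0.95. Leaving out both of these H1299 libraries raised the number of called differences from 6011 to 8466, and counts without them stand beside the main lists. They were picked for lying between the groups, so leaving them out favours more calls. With the replicate number as a block, described at the end, the called differences were 4244. The labelled lines matched their known features: KRT7, a keratin of simple epithelia, averaged 52435 normalized counts in A549 controls and 28.5 in H1299 controls, and the mesenchymal filament gene VIM averaged 14502 and 59781. Of 10 fibroblast markers none reached the filter in both lines, and of 10 blood cell and 10 endothelial markers 1 each did (ITGAM and ESAM).

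HEPACAM2 itself was close to absent from both control groups and rose to different levels. A549 controls held 1 HEPACAM2 read in 3 libraries and H1299 controls 9 reads, against 17391 and 76382 reads in the overexpressing groups. The overexpressing A549 libraries held 6074, 5864 and 6084 normalized counts and those of H1299 27257, 24999.9 and 23710.2. No fold change is given, because the control levels rest on so few reads. The H1299 control 1 held 4 reads, so its position toward the overexpressing libraries was not accompanied by HEPACAM2 reads. The level of the transgene differed between the lines together with everything else that differs between them, and its part in the differences below cannot be told apart.

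Most genes that changed in both lines changed in opposite directions. The test was limma with Benjamini-Hochberg adjustment over all 14578 genes at a threshold of 0.05. The difference between the lines was called in 6011 genes, which is 41.2% of those tested. It was higher in A549 in 3312 (22.7%) and lower in 2699 (18.5%). In A549 1901 genes rose (13.0%) and 1624 fell (11.1%), and in H1299 2874 rose (19.7%) and 3310 fell (22.7%). Of the 2060 genes called in both lines, 571 moved the same way, with 387 rises (2.65% of genes tested) and 184 falls (1.26%). The other 1489, 72.3%, moved in opposite ways: 787 rose in A549 and fell in H1299 (5.4%), and 702 fell in A549 and rose in H1299 (4.82%). The difference itself passed the test in all 1489 of these and in 150 of the 571 with a shared direction. The count of 1489 adds no evidence of its own, because the fit gave both lines the same SE for a gene. Changes called in opposite directions then add up to a difference that passes by construction. The contrast with the genes of shared direction is therefore not a separate result. In bulk RNA, fewer cells of a type and less RNA per cell cannot be told apart.

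**Figure D1:**
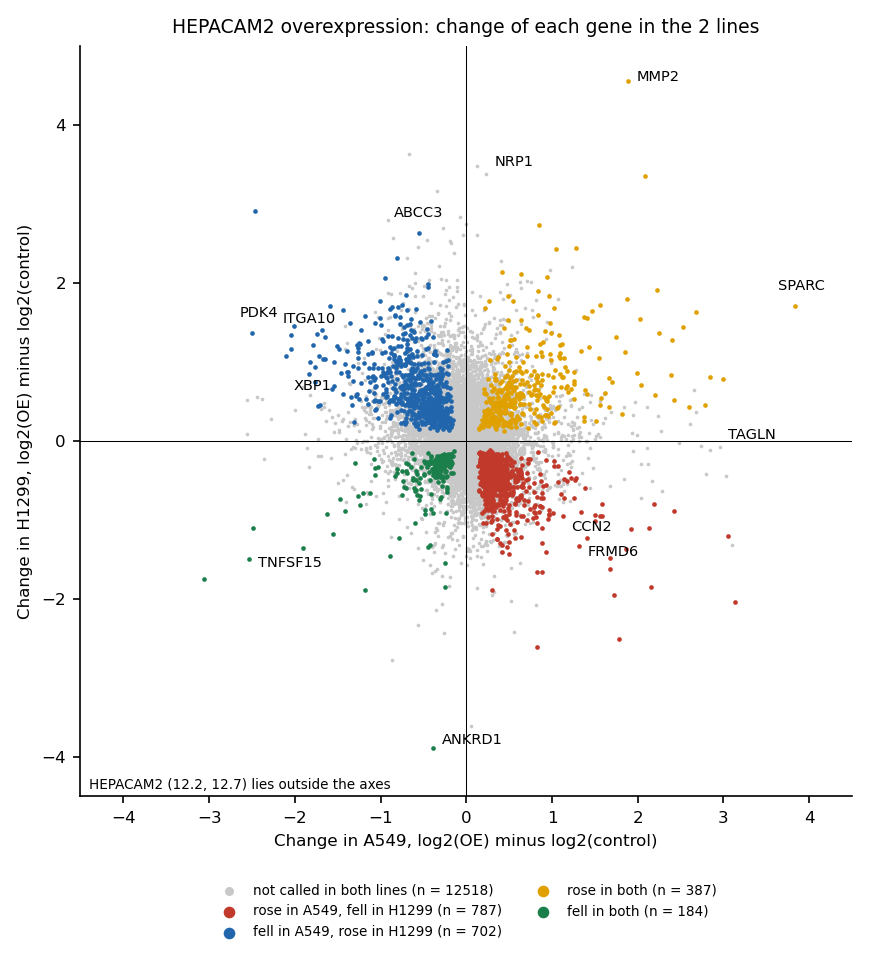
Each point is 1 of 14578 genes, with the log2 change in A549 on the horizontal axis and in H1299 on the vertical axis (mean of 3 overexpressing minus mean of 3 control libraries). Coloured points were called in both lines, and the red and blue points in the opposite-direction quadrants (787 and 702) outnumber the yellow and green points of shared direction (387 and 184).

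Across the 14578 genes the changes in the lines had a Pearson correlation of -0.12 and a Spearman correlation of -0.24, given as a description because genes of a line share its libraries. Point estimates had the same sign in 40.6% of genes. The median change was 0.01 in A549, -0.01 in H1299 and 0.02 for the difference, so all lay near 0. The libraries of the control and overexpressing groups were fully separated for 51.7% of genes in A549 and 43.8% in H1299. They were separated in both lines for 1400 of the 1489 opposite genes and 515 of the 571 shared ones.

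Among the genes that rose in A549 and fell in H1299, 6 of the 7 described here were at least 4 times higher in H1299 controls than in A549 controls in CPM, the reads of a gene scaled to a common library total, and DUSP1 was the exception. IL32, a cytokine gene of immune and epithelial cells (chr16:3065297-3082192, GRCh38), held 36.3, 24.1 and 33.8 normalized counts in A549 controls and 108, 105 and 90.5 in the overexpressing libraries. H1299 controls held 683, 579 and 558 and overexpressing libraries 201, 206 and 245. The groups did not overlap in either line. The difference of the changes was 3.15 (SE 0.22, limma adjusted p = 1.7e-07). FRMD6, a FERM domain protein linked to the Hippo pathway, held 306, 325 and 339.7 in A549 controls and 798, 819 and 797 in overexpressing libraries. H1299 held 1894, 2175 and 2229.6 and 818, 824 and 843. Its groups were separate in both lines too, with changes of 1.31 and -1.34 and a difference of 2.65 (SE 0.10, limma adjusted p = 1.6e-09).

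DUSP1, the phosphatase that switches off MAP kinases, stood at like levels in both controls, with 68.5 CPM in A549 and 58.6 in H1299. Its A549 libraries went from 1245, 1366 and 1468 normalized counts to 3540.5, 3526 and 3772. In H1299 they went from 1076, 1083 and 981 to 510.2, 397 and 432. The groups were separate in both lines, and the difference of the changes was 2.65 (SE 0.12, limma adjusted p = 1.0e-08). The remaining named genes of this class were LY6K, MARCHF4, SERTAD4 and DOK3, with differences of 4.004, 3.23, 2.98 and 2.53.

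Genes that fell in A549 and rose in H1299 included PDK4, STING1, ITGA10 and ABCC3. PDK4, the kinase that holds back pyruvate dehydrogenase (chr7:95583499-95596491, GRCh38), held 3426, 3383 and 2895 normalized counts in A549 controls and 595, 647 and 483 in overexpressing libraries. In H1299 it held 23.6, 24.5 and 31.2 and 74.9, 57.1 and 77.3. It fell in A549 from 163 CPM in controls and rose in H1299 from 1.48, with no overlap of groups. The difference of the changes was -3.86 (SE 0.21, limma adjusted p = 1.9e-08).

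STING1, the adaptor that couples cytosolic DNA sensing to interferon, went against that order of control levels. Its controls held 3.60 CPM in A549 and 13.8 in H1299. It held 73.7, 77.0 and 63.6 normalized counts in A549 controls and 21.3, 23.3 and 15.9 in A549 overexpressing libraries. In H1299 it held 263, 252 and 225 and 591, 573 and 553. The line with the lower control level fell and the one with the higher level rose, and the groups did not overlap in either. The difference was -3.00 (SE 0.21, limma adjusted p = 1.6e-07). ITGA10, a collagen-binding integrin chain, had like control levels, at 5.16 and 5.66 CPM. Its A549 libraries went from 115, 103 and 88.1 to 28.4, 41.9 and 22.02, and its H1299 libraries from 93.4, 106 and 104 to 327, 220.3 and 239. The difference was -3.09 (SE 0.30, limma adjusted p = 2.9e-06).

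ABCC3, a drug and bile salt exporter, had the widest gap in control level of this group, at 534 CPM in A549 and 0.978 in H1299. Its A549 libraries went from 10597, 10348 and 10825 to 7292, 7519.8 and 6932 normalized counts and its H1299 libraries from 17.5, 13.3 and 21.8 to 140.0, 94.2 and 106. The rise in H1299 made up most of the difference of -3.18 (SE 0.22), the changes being -0.55 in A549 and 2.63 in H1299. The remaining named genes were B3GNT3, KCNT2, CAMK2N1 and KAZALD1, with differences of -3.21, -3.17, -3.11 and -2.96.

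**Figure D2:**
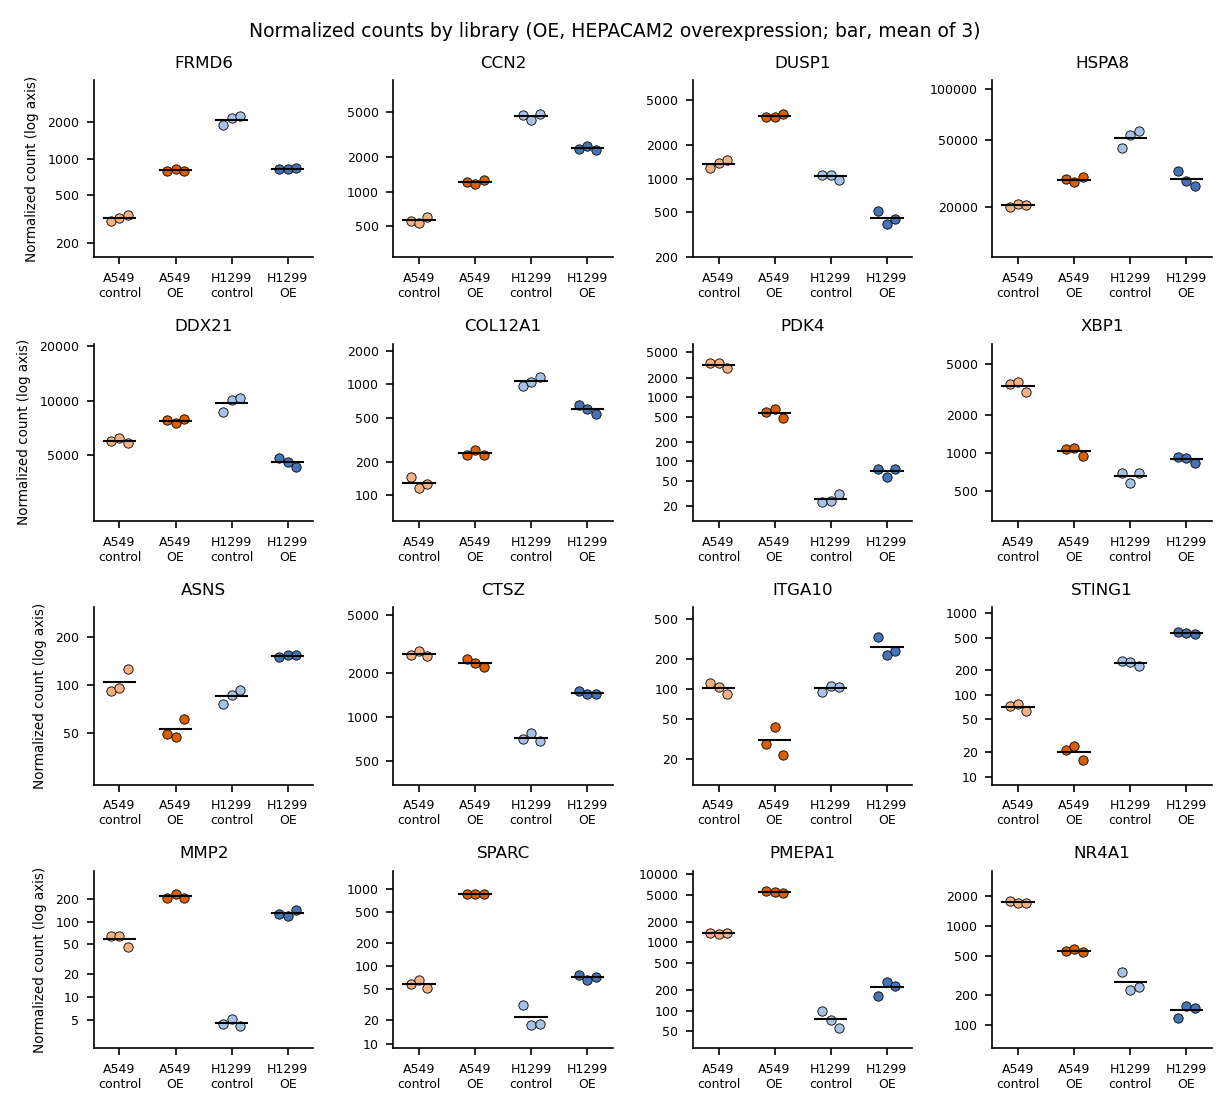
Normalized counts of 16 genes in every library on a log axis, with the mean of 3 as a bar. The A549 and H1299 tables were normalized separately, so levels are compared within a line. From FRMD6 to COL12A1 the A549 groups step up and the H1299 groups step down, from PDK4 to STING1 the reverse holds, and MMP2, SPARC, PMEPA1 (up) and NR4A1 (down) move the same way in both lines.

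Genes that moved the same way in both lines were named by their smaller change. PMEPA1, an inhibitor of TGF-beta signalling that the pathway induces, held 1366, 1312 and 1362 in A549 controls and 5557, 5533 and 5359 in overexpressing libraries. H1299 held 99.5, 72.6 and 56.2 and 165, 265 and 231. The groups were separate in both lines, the changes were 2.02 and 1.53, and their difference of 0.49 did not pass the test (SE 0.27, limma adjusted p = 0.17). Without the H1299 control 3, the lowest of the H1299 controls, the PMEPA1 difference was 0.69 and passed. MDGA1, a membrane-anchored adhesion protein, and FRMD5, a FERM domain protein, rose in both lines, with differences that were not called, at 0.32 (SE 0.24) and -0.17 (SE 0.19).

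MMP2 and SPARC were also called as rises in both lines. MMP2, the gelatinase A gene, held 64.9, 64.4 and 45.7 in A549 controls and 207, 235 and 205 in overexpressing libraries. H1299 held 4.36, 5.11 and 4.16 and 128, 119 and 141. The H1299 controls lay below the filter of 10, which MMP2 passed in that line through the overexpressing libraries alone. The changes of 1.89 in A549 and 4.56 in H1299 are therefore given as values, with no test of their difference. SPARC, the matrix protein osteonectin, held 59.4, 65.5 and 51.7 and 849.6, 852 and 846 in A549. In H1299 it held 31.4, 17.4 and 17.7 and 76.7, 66.4 and 72.9. Its difference was 2.13 (SE 0.27, limma adjusted p = 3.2e-05).

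Among shared falls were NR4A1, an immediate early nuclear receptor, BMP6, a bone morphogenetic protein, and ID1, a target of BMP signalling. NR4A1 held 1783, 1709 and 1679 in A549 controls and 555, 584 and 538 in overexpressing libraries. H1299 held 344, 228 and 242 and 117, 157 and 150.2. It fell in both without overlap, and further in A549, by a difference of -0.70 (SE 0.20, limma adjusted p = 0.012). The falls of BMP6 (-1.55 and -1.18), ID1 (-0.88 and -1.46) and TNFSF15 (-2.53 and -1.49) did not differ past the threshold, at adjusted p = 0.37, 0.13 and 0.094 by limma. The TNFSF15 difference of -1.04 did pass without the A549 overexpressing library 1 (-1.30), without the H1299 overexpressing library 3 (-1.34), with DESeq2 (-1.09) and with a GC trend removed (-1.18), and that of ID1, 0.57, passed with the GC trend removed (0.72). NANOS1 and CYB5B completed the named falls, with differences of 0.45 and -0.01.

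Other named genes were called in 1 line. TAGLN, the smooth muscle actin-binding protein transgelin, held 93.5, 92.0 and 109.9 in A549 controls and 774, 750.3 and 780.4 in overexpressing libraries. H1299 held 76.8, 60.3 and 58.2 and 72.3, 65.0 and 48.3, with overlap between the groups. The difference was 3.04 (SE 0.22, limma adjusted p = 2.3e-07). NRP1, a coreceptor for semaphorins and VEGF, held 5716, 5889 and 5505 and 6746, 6658 and 6709 in A549 against 6.11, 9.20 and 4.16 and 98.1, 70.3 and 58.0 in H1299. The A549 change was not called (adjusted p = 0.5 by limma). Its H1299 controls lay below the filter of 10, which it passed in that line through the overexpressing libraries, so the H1299 change of 3.37 is given with no test of the difference. ADAM19, PEAR1, PIK3AP1, LHFPL6 and IL31RA also rose in A549, with differences between 1.93 and 2.96. In H1299 alone BMF, OLFML2A, SRPX, ITGB4 and SLC45A1 rose, with differences between -3.00 and -2.45.

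Pathways were then read through gene lists. The lists were written with earlier results of these data known, so each count is a description to be set beside the shares for all genes above. For each list the number measured and counts of called members are given, and for some the median change. Where members outside the rule for named genes appear, they were chosen after their values were seen. Some counts that moved by over 1.5 times with 1 library left out are given with their range and the libraries concerned. Not all are, so a count without a range may have moved as far. The 2 rises of cytosolic ribosomal proteins in H1299, for example, ranged from 0 to 14.

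**Figure D3:**
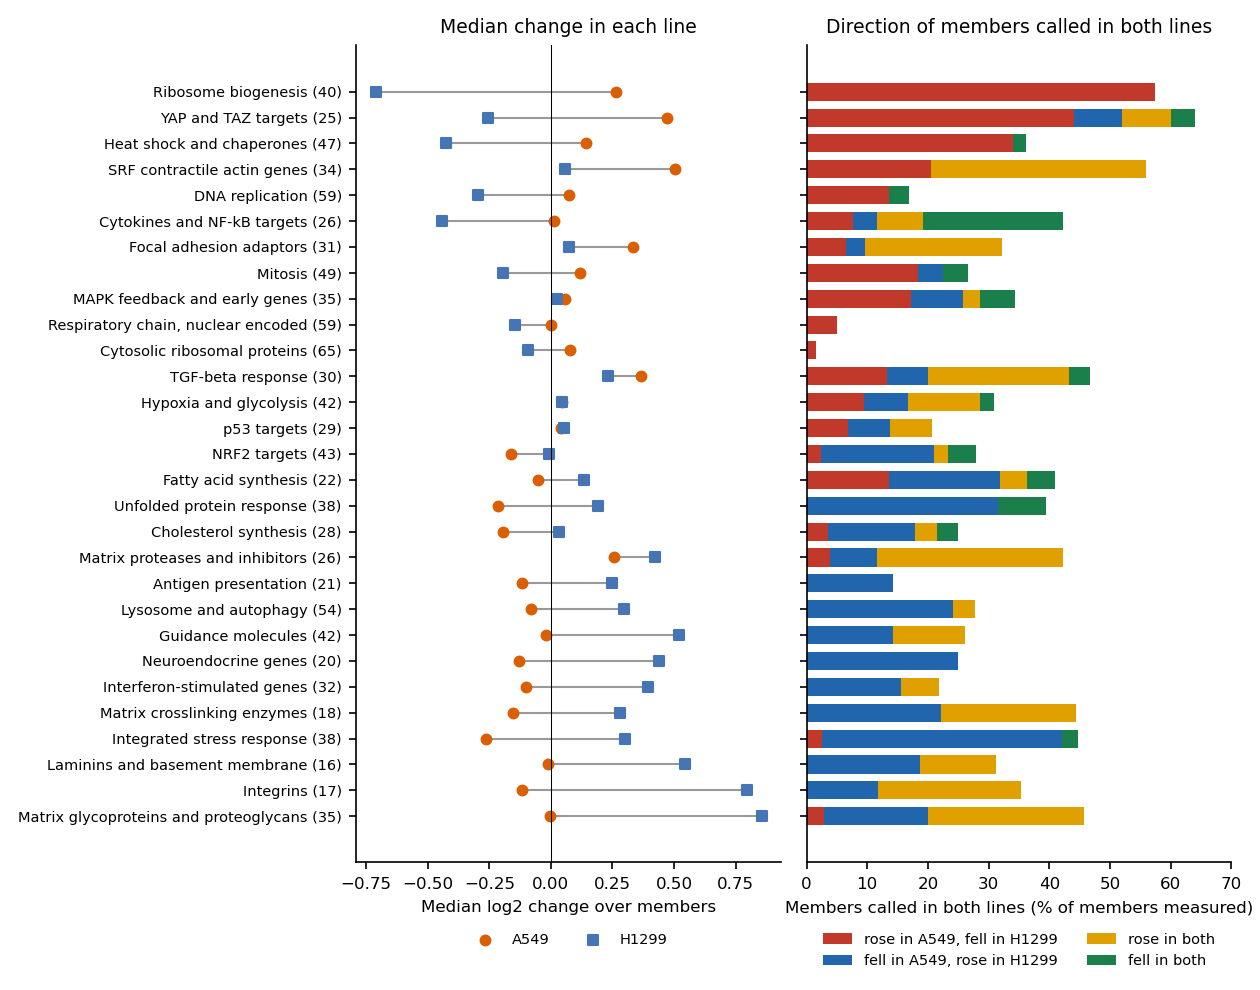
Left, the median log2 change over the measured members of 29 lists in A549 (circles) and H1299 (squares), ordered by the median difference, with the number measured in brackets. Right, the percentage of members called in both lines, split by direction. Among members called in both lines, ribosome biogenesis, chaperones and YAP targets hold mostly genes that rose in A549 and fell in H1299, stress response and lysosome lists mostly the reverse, and contractile actin, focal adhesion and matrix protease lists mostly shared rises.

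YAP and TAZ are transcriptional coactivators that the Hippo kinases keep out of the nucleus. In adherent cells they act with TEAD factors on genes for matrix proteins, cytoskeletal regulators and their own inhibitors. Of 25 measured YAP and TAZ targets (27 listed), 19 rose and 3 fell in A549, while 4 rose and 13 fell in H1299. The difference was called higher in A549 for 19 and lower for 3, 11 rose in A549 and fell in H1299, and 2 did the reverse. The median change was 0.47 in A549 and -0.25 in H1299, against 0.01 and -0.01 over all genes. Without both H1299 libraries numbered 1, 20 rose and 3 fell in A549, 5 rose and 14 fell in H1299, and the median difference of the YAP and TAZ targets went from 0.79 to 0.90.

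The secreted target CCN2, also called CTGF, held 553, 526 and 591 in A549 controls and 1220.0, 1160.1 and 1268 in overexpressing libraries. H1299 held 4758, 4317 and 4819 and 2357, 2544 and 2305. The groups were separate in both lines, and the difference was 2.07 (SE 0.09, limma adjusted p = 7.4e-09). CCN1, its relative CYR61, rose in A549 and fell in H1299, with changes of 0.31 and -0.76. Regulators of the pathway moved likewise: the Hippo kinase LATS2 changed by 0.63 and -0.71, the scaffold AMOTL2 by 0.90 and -0.57, and the kinase NUAK2 by 0.47 and -1.35. The secreted protein FJX1 changed by 0.70 and -1.003. ANKRD1, a nuclear ankyrin repeat protein, fell in both lines, with A549 libraries going from 228, 271 and 283 to 198, 208 and 191 and H1299 libraries from 1093, 1398 and 1469 to 99.9, 87.6 and 77.3. Its difference of 3.50 (SE 0.18) came from the deeper fall in H1299. AMOTL1 and NT5E, an angiomotin and an ecto-nucleotidase, went the other way, with differences of -1.10 and -0.80.

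Promoters of 19 of these targets were matched by symbol in RefSeq (GRCh38.p14), as 250 bases before and 50 after the start. The core of the TEAD motif, GGAATG on either strand, was found in 7 of the 19 (36.8%), against 10.7% of the 9728 promoters of protein-coding genes tested here. The 250 bases before the start are shown for the 2 opposite members with the widest difference in the list, to let the position of the motif be seen, and capitals mark it or its reverse complement. The CCN2 stretch lies at chr6:131951373-131951622 and that of NUAK2 at chr1:205321746-205321995, both on the minus strand.
CCN2: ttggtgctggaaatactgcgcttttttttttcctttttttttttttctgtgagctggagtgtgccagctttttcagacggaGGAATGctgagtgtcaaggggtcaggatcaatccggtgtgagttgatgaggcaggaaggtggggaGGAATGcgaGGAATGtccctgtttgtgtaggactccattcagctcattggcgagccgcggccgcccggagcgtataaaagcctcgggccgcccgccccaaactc
NUAK2: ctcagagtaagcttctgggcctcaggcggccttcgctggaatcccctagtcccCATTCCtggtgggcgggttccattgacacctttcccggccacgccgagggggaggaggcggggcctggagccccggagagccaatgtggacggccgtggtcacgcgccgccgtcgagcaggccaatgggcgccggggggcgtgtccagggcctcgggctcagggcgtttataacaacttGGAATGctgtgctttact
CCN2 held 3 matches, beginning 169, 104 and 95 bases before the start, and NUAK2 held 2, at 197 and 18 bases. A match is a description and not a site of binding. Over all genes the motif was found in 10.9% of those that rose in A549 and fell in H1299, in 8.75% of the reverse class and in 11.6% of shared rises. Motifs were searched separately, and matches of different motifs may overlap.

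Contractile actin genes, many of them targets of serum response factor (SRF) and its actin-sensing coactivators, rose broadly in A549 and in part in H1299. Of 34 measured, 28 rose and 1 fell in A549, and 13 rose and 7 fell in H1299. The shared rises numbered 12 and the opposite ones, all higher in A549, 7. The shared rises included the filamin FLNA (0.83 and 0.56), vinculin VCL (0.94 and 0.40) and the nonmuscle myosin MYH9 (0.95 and 0.31). TPM1, a tropomyosin that stabilizes actin filaments, held 5715, 5758 and 5856 in A549 controls and 14004, 13804 and 14417 in overexpressing libraries. H1299 held 5836, 6584 and 6477 and 4884, 4301 and 4442. The groups did not overlap in either line, with a difference of 1.76 (SE 0.08, limma adjusted p = 1.1e-08). Caldesmon CALD1 (0.82 and -0.96), filamin FLNC (0.86 and -0.82) and SRF itself (0.65 and -0.47) did likewise. The light chain MYL9 rose in both, by 2.79 in A549 and 0.45 in H1299. The SRF motif known as the CArG box was found in 7 of 31 matched promoters (22.6%) against 1.03% of tested promoters. Those of TPM1 and CALD1 held none.

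Focal adhesion adaptors also rose more often in A549 by count. Of 31 measured, 20 rose and 2 fell in A549, 10 rose and 2 fell in H1299, and 7 rose in both. The 10 rises in H1299 were 6 without the H1299 control 2. The 7 shared rises ranged from 3 to 7, moving by over 1.5 times without any of the A549 overexpressing libraries, A549 control 1, H1299 control 2 or the H1299 overexpressing libraries 2 and 3. Zyxin, ZYX, which senses tension on actin, rose by 1.26 in A549 and changed by 0.07 in H1299 (adjusted p = 0.75 by limma). Caveolin CAV1 rose by 1.02 and 0.22. Kindlin-2, FERMT2, an integrin activator, was opposite (0.59 and -0.46), and the adaptor TNS2 was opposite in the other direction (-0.31 and 0.92).

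Ribosome biogenesis genes fell almost throughout in H1299, and many of them rose in A549. The nucleolus makes ribosomes with RNA polymerase I, box C/D and H/ACA particles and assembly factors, and its genes are known for rising together with growth. All 40 listed genes were measured. In A549 23 rose and none fell, and in H1299 none rose and 39 fell. The difference was called higher in A549 for 37 and lower for none, and 23 of the 40 rose in A549 and fell in H1299, against 5.4% of all genes. The median change was 0.26 in A549 and -0.71 in H1299, and the difference ranged from 0.33 for NHP2 to 1.48 for NIP7. Without both H1299 libraries numbered 1, 32 rose in A549 and 37 fell in H1299, and 32 of the Ribosome biogenesis genes were opposite. With 1 library left out the 23 rises in A549 ranged from 18 to 31 and the 23 opposite genes from 18 to 30. The 39 falls in H1299 ranged from 37 to 39.

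DDX21, a nucleolar RNA helicase, held 5974, 6203 and 5852 in A549 controls and 7796, 7568 and 7935 in overexpressing libraries. H1299 held 8610.2, 10038 and 10335 and 4834, 4599.7 and 4320.1. The A549 step was small and the H1299 step wide, and neither line's groups overlapped. The difference was 1.44 (SE 0.09, limma adjusted p = 1.0e-07). Other assembly factors with wide differences were NOP16 (1.46), RRS1 (1.35) and NOP56 of the box C/D particle (1.32). The nucleolar chaperone nucleophosmin, NPM1, changed by 0.39 and -0.88, nucleolin, NCL, by 0.31 and -0.75, and the polymerase I subunit POLR1B by 0.21 and -0.83. Their control levels differed little, with a median log2 ratio of A549 to H1299 of -0.41 in CPM. The E-box CACGTG was found in 13 of 34 matched promoters (38.2%) against 10.4% of tested promoters. It occurred in 14.6% of genes that rose in A549 and fell in H1299 against 7.6% of the reverse class. It was also found in 7 of 38 promoters (18.4%) of the lysosome and autophagy list, where 29 differences were lower in A549 and 4 higher. NIP7 and NOP16, the opposite ribosome biogenesis genes with the widest difference, held none in this window.

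The cytosolic ribosomal proteins themselves, whose transcripts are abundant and regulated apart from the nucleolar factors, moved little. Of 65 measured, 3 rose in A549, 2 rose and 12 fell in H1299, and 16 differences were called, all higher in A549. The median changes were 0.08 and -0.09. Without 1 of the H1299 libraries the 12 falls in H1299 ranged from 3 to 28, each of the 6 moving them by over 1.5 times. The 16 differences ranged from 6 to 25, moving so far without A549 control 1 or 3, A549 overexpressing 1, H1299 control 2 or 3, or H1299 overexpressing 1 or 2. The 13 genes encoded in mitochondrial DNA gave no called difference. Of 59 nuclear respiratory chain genes, 24 fell in H1299 and none rose, with CYCS, cytochrome c, at -0.95 there and 0.17 in A549 (adjusted p = 0.11 by limma). The 24 falls ranged from 14 to 32, moving by over 1.5 times without the H1299 control 3 or the overexpressing library 2.

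Heat shock proteins and chaperones mostly fell in H1299, and some rose in A549. They fold newly made and damaged proteins and are induced by HSF1. Of 47 measured (50 listed), 19 rose and 1 fell in A549, 1 rose and 33 fell in H1299, and 16 were opposite, all higher in A549. The medians were 0.14 and -0.43. Without both H1299 libraries numbered 1, 24 members of Heat shock and chaperones were opposite. With 1 library left out the 19 rises in A549 ranged from 8 to 23 and the 16 opposite genes from 7 to 19, both moving by over 1.5 times without any A549 library except control 2, while the falls in H1299 ranged from 33 to 34. All 8 subunits of the chaperonin that folds actin and tubulin fell in H1299, while 2 rose in A549. Of 9 mitochondrial chaperones and proteases 6 fell in H1299, including HSPD1 (-0.89) and its partner HSPE1 (-0.85). The stress-inducible genes HSPA1A and HSPA1B were not called in either line (changes of 0.32 and 0.12 in A549 and -0.04 and -0.08 in H1299).

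HSPA8, the constitutive cytosolic HSP70, held 20099.6, 20913 and 20537 in A549 controls and 29347, 28004 and 29902 in overexpressing libraries. H1299 held 44857, 53163 and 56489 and 32569, 28620.2 and 26732. The groups were separate in both lines and moved in opposite ways. The difference was 1.31 (SE 0.12, limma adjusted p = 1.3e-06). HSP90AA1, the inducible HSP90, differed by 1.24, HSPH1, a nucleotide exchange factor of HSP70, by 1.20, and the HSP90 cochaperone CHORDC1 by 1.80, from changes of 0.57 and -1.24.

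The heat shock element was searched as GAANNTTC, which reads the same on both strands, and was found in 9 of 40 matched promoters (22.5%) against 4.5% of tested promoters. The 250 bases before the start are shown for the opposite members with the widest difference, with matches in capitals. CHORDC1 lies at chr11:90223050-90223299 and HSPA8 at chr11:123062137-123062386, both on the minus strand.
CHORDC1: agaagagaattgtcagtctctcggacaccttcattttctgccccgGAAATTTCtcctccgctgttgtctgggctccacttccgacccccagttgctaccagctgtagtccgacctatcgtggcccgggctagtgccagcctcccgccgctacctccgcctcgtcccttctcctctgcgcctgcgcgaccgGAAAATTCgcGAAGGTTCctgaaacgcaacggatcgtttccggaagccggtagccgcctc
HSPA8: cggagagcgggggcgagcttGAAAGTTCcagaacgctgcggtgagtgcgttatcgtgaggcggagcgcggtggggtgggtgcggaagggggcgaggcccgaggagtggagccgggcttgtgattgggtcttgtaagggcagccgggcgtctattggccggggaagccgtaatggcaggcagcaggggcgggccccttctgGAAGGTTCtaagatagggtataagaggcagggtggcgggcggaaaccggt
CHORDC1 held matches that begin 205, 60 and 50 bases before the start, and HSPA8 at 230 and 50 bases. The element occurred in 6.33% of promoters of genes that rose in A549 and fell in H1299 and in 5.32% of the reverse class.

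Cell cycle genes fell in H1299, and fewer were called in A549. Of 59 DNA replication genes, all measured, 41 fell and 2 rose in H1299, 10 rose and 2 fell in A549, and 39 differences were higher in A549. The 10 rises in A549 were 16.9% of the list, near the 13.0% of all genes, and ranged from 4 to 12 with 1 library left out, moving by over 1.5 times without any of the A549 libraries. MCM10, an origin firing factor, changed by 0.25 and -0.67, the checkpoint adaptor CLSPN by 0.22 and -0.61, and the GINS helicase subunit GINS2 by 0.25 and -0.54. Of 49 mitosis genes, 13 rose and 4 fell in A549, and 3 rose and 27 fell in H1299. The 13 rises ranged from 7 to 15, moving as far without the A549 control 3 or the overexpressing libraries 1 and 3. MYBL2, the B-MYB factor of mitotic genes, was the widest, with 2174, 2302 and 2265 and 3323, 3248 and 3570.4 in A549. H1299 held 4085, 3338 and 3335 and 1869.6, 2317 and 2321. Its groups did not overlap in either line and its difference was 1.31 (SE 0.13). The phosphatase CDC25B moved against the list, with -0.35 and 0.44. An E2F motif was found in 34 of 48 replication promoters (70.8%) against 21.6% of tested ones, and the CHR element TTTGAA in 25 of 41 mitosis promoters (61.0%) against 9.07%. MCM10 held no E2F match and CLSPN 1.

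**Figure D4:**
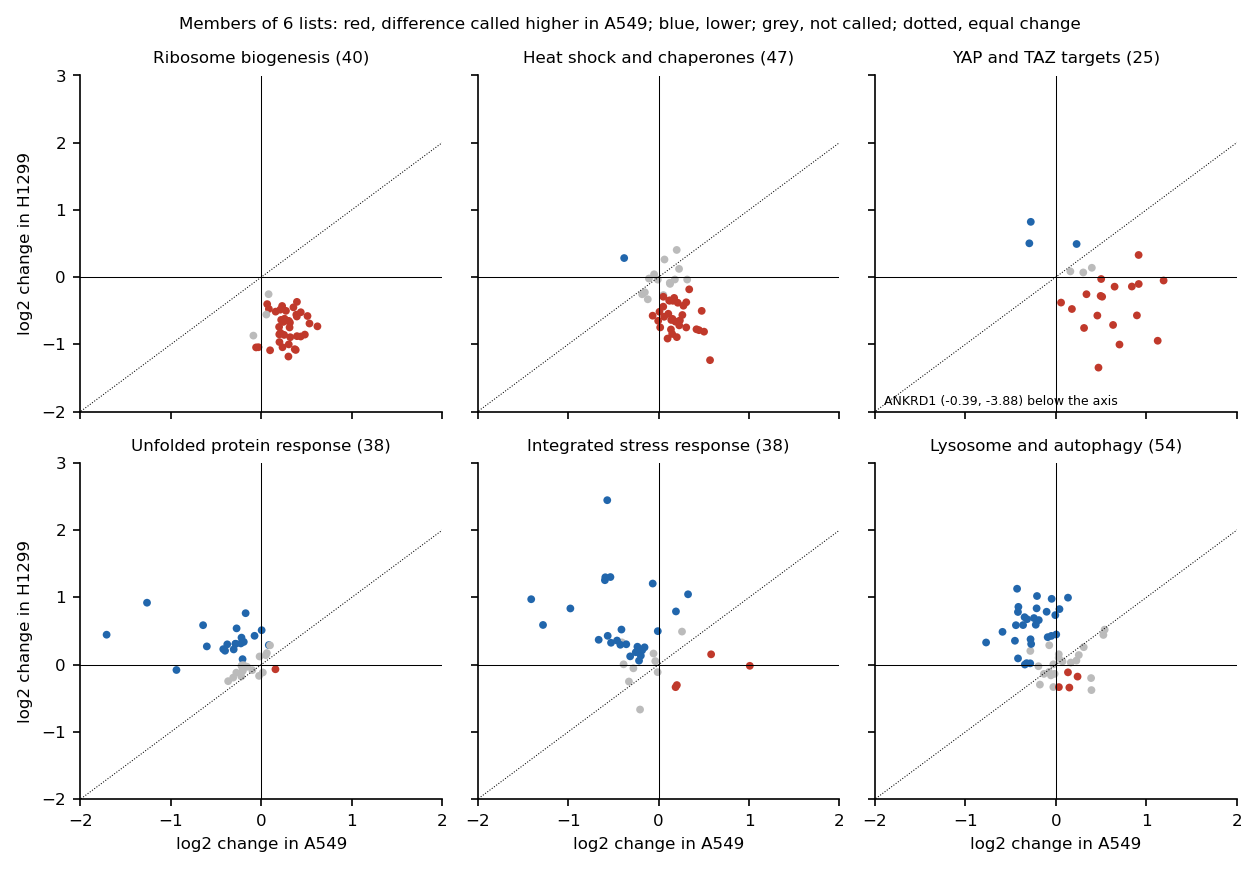
Log2 change in A549 (horizontal) and H1299 (vertical) of every measured member of 6 lists, coloured by the called difference, with the dotted line at equal change. Members of the upper lists (ribosome biogenesis, chaperones, YAP and TAZ targets) sit mostly in the quadrant of a rise in A549 and a fall in H1299, and members of the lower lists (unfolded protein response, integrated stress response, lysosome) mostly in the opposite one.

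The unfolded protein response ran the other way. It is set off by misfolded protein in the endoplasmic reticulum (ER) through the sensors IRE1, PERK and ATF6 and is a known feature of secretory cells. Of 38 measured genes (39 listed), 1 rose and 22 fell in A549, and 19 rose and 3 fell in H1299. The difference was lower in A549 for 20 and higher for 1, 12 fell in A549 and rose in H1299 against 4.82% of all genes, and none did the reverse. Among sensors, factors and degradation genes 13 of 20 were lower in A549 (median difference -0.53), and among chaperones and folding enzymes 7 of 18 (median -0.19). Without both H1299 libraries numbered 1, 25 differences in the Unfolded protein response list were lower in A549 and 3 higher.

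XBP1, the factor that IRE1 splices, held 3494, 3653 and 3038 in A549 controls and 1074, 1084 and 947 in overexpressing libraries. H1299 held 695, 572 and 686 and 930.3, 906 and 819. The groups were separate in both lines. The difference was -2.16 (SE 0.13, limma adjusted p = 5.2e-08). CREB3L1, an ER-anchored factor of secretory genes, differed by -2.19 from changes of -1.26 and 0.92. The oxidase ERO1B (-0.64 and 0.59), the cochaperone DNAJB9 (-0.60 and 0.27) and the degradation gene HERPUD1 (-0.28 and 0.31) were also opposite. The master chaperone HSPA5, known as BiP, fell slightly in both (-0.22 and -0.17), and so did HYOU1 (-0.31 and -0.19).

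The integrated stress response couples translation to amino acid supply through ATF4. All 38 listed genes were measured: 3 rose and 19 fell in A549, 24 rose and 4 fell in H1299, 25 differences were lower in A549, and 15 fell in A549 and rose in H1299. The medians were -0.27 and 0.30. Without both H1299 libraries numbered 1, 22 genes of the Integrated stress response list were opposite. ATF4 itself was opposite by small amounts (-0.20 and 0.13). ASNS, asparagine synthetase, held 92.4, 96.6 and 126 in A549 controls and 49.7, 47.5 and 61.2 in overexpressing libraries. H1299 held 76.8, 86.9 and 93.6 and 152, 154 and 155. The groups did not overlap in either line, and the difference was -1.81 (SE 0.22). PHGDH, which opens serine synthesis, differed by -1.89, CTH of cysteine synthesis by -1.87, the glutathione-degrading CHAC1 by -2.38, and the carrier SLC1A4 by -1.85. The large neutral amino acid carrier SLC7A5 and its partner SLC3A2 went against the list, rising by 1.01 and 0.58 in A549, with -0.02 and 0.15 in H1299 (adjusted p = 0.94 and 0.087 by limma).

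In the promoters, the ER stress half-site CCACG was found in 22 of 34 unfolded protein response genes (64.7%) against 50.8% of tested promoters, and CCAAT in 76.5% against 36.8%. The ATF4 composite element TGATGNAAN was found in 7 of 32 integrated stress response promoters (21.9%) against 1.54%. CCACG occurred in 47.1% of genes that fell in A549 and rose in H1299 and in 54.7% of the reverse class. For CCAAT these shares were 38.6% and 34.5%, and for the ATF4 element 2.85% and 1.11%. CCAAT was also found in 73.2% of mitosis promoters, a list with mostly higher differences in A549, and in 30.0% of heat shock promoters. XBP1 and CHAC1 are shown because each holds the motif of its list, in capitals on either strand. XBP1 lies at chr22:28800570-28800819 on the minus strand and CHAC1 at chr15:40953221-40953470 on the plus strand.
XBP1: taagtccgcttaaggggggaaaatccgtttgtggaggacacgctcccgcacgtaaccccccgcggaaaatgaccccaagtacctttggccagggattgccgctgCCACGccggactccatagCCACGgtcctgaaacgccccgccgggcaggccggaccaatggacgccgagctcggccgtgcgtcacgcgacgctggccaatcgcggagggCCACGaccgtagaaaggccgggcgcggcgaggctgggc
CHAC1: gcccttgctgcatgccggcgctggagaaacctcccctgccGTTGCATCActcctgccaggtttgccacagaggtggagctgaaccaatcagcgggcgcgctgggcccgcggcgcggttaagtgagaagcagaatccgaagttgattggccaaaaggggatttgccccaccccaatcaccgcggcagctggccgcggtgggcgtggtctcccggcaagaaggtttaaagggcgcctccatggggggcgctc
The matches in XBP1 begin 146, 128 and 38 bases before the start and the one in CHAC1 at 210 bases. CREB3L1 and PHGDH held none in this window. Both the E-box and the ATF4 element were added to the search after the list results were seen.

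Lysosomal genes rose in H1299 and fell in part in A549. Of 54 measured, 27 rose and 4 fell in H1299, 4 rose and 18 fell in A549, and 29 differences were lower in A549. Among enzymes and membrane proteins 24 of 36 were lower in A549 and none higher, and among autophagy factors 5 of 18 were lower and 4 higher. CTSZ, a cathepsin, held 2668, 2847 and 2652 in A549 controls and 2502, 2345 and 2226 in overexpressing libraries. H1299 held 711, 774 and 686 and 1516, 1448 and 1442. The fall in A549 was slight and the rise in H1299 wider, at -0.21 and 1.02, and the difference was -1.23 (SE 0.09). The protease CTSD (-1.27), the sphingomyelinase SMPD1 (-1.20) and glucuronidase GUSB (-1.05) differed alike. The regulators TFEB and MITF were not called (differences of 0.77 and 0.59).

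Matrix glycoproteins, integrins, laminins and collagen-modifying enzymes had more rises in H1299 than in A549. Other adhesion lists did not share this. The focal adhesion adaptors above had more in A549. Of 24 immunoglobulin-like adhesion molecules, the class of HEPACAM2, 7 rose in A549 and 8 in H1299, the overexpressed HEPACAM2 being counted in both. Differences called numbered 8 in each direction. Those 8 rises in H1299 were 5 without the H1299 control 2 or the overexpressing library 2, and the 8 differences lower in A549 ranged from 5 to 10, moving by over 1.5 times without the A549 control 1 or the overexpressing libraries 1 and 2. Of 35 matrix glycoproteins and proteoglycans measured (60 listed), 27 rose and 1 fell in H1299, 12 rose and 6 fell in A549, and 9 rose in both. FN1, fibronectin, fell by 0.41 on the log2 scale in A549 and rose in H1299 by 1.52, from 2502 ± 237 to 1879 ± 160.0 and from 266 ± 20.5 to 766 ± 73.0 (SD, n = 3). The latent TGF-beta binding protein LTBP1 differed by -2.14 and the sushi repeat protein SRPX by -2.75. Tenascin TNC and the fibulin-like EFEMP1 went the other way (2.08 and 1.99), and TGFBI rose in both (1.41 and 1.55).

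Integrins bind these proteins. Of 17 measured, 13 rose and 1 fell in H1299, and 5 rose and 2 fell in A549. All 6 beta chains rose in H1299, among them ITGB4 of hemidesmosomes, which held 112, 93.0 and 83.2 in controls and 399, 527 and 584 in overexpressing libraries. In A549 it held 2141, 2115 and 2073 and 1925, 1910.3 and 1895, where the groups were separate but the change was not called (adjusted p = 0.46 by limma). The difference was -2.51 (SE 0.18, limma adjusted p = 2.3e-07). ITGB6 rose in both (2.40 and 1.28), and ITGA4 rose in A549 (1.54).

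Of 16 laminin and basement membrane genes 11 rose in H1299 and 3 in A549, with the laminin chains LAMA5 and LAMB1 differing by -1.49 and -1.37. Among 18 collagen-modifying enzymes 15 rose in H1299 and none fell, while 4 rose and 5 fell in A549. The 15 rises in H1299 ranged from 8 to 14 with 1 library left out, moving by over 1.5 times without the H1299 control 2 or the overexpressing libraries 2 and 3. The 5 falls ranged from 3 to 6, moving as far without any A549 library except control 3. The collagen chaperone SERPINH1 and the hydroxylase subunit P4HB, both ER residents, were opposite (-0.83 and -0.68). Of 15 collagens measured of 38 listed, 6 rose in A549 and 8 in H1299. The 6 were 3 without the A549 overexpressing library 1 or 2. COL1A1 rose in A549 from 263, 256 and 252 to 2148, 2149 and 2009.6, while in H1299 it held 26.2, 10.2 and 13.5 and 7.14, 13.3 and 14.1. The H1299 groups overlapped at this low level, and the difference was 3.47 (SE 0.41). COL12A1 was opposite, at 0.88 and -0.84.

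Matrix proteases shared more of the response. Of 26 measured, 11 rose in A549 and 16 in H1299, and 8 rose in both, among them the urokinase PLAU (1.12 and 0.80) and the inhibitor TIMP2 (0.92 and 1.38). The 8 also hold MMP2, which passed the filter in H1299 through the overexpressing libraries alone. MMP14, the membrane protease that activates MMP2, fell in A549 by 0.45 on the log2 scale and rose in H1299, where it held 2938, 2329.7 and 2229 in controls and 8061, 10448 and 10447 in overexpressing libraries. Its difference was -2.39 (SE 0.19, limma adjusted p = 1.2e-06). Guidance molecules, the semaphorins, plexins, ephrins and their kin, counted 26 rises and no fall in H1299 among 42 measured, against 9 and 7 in A549. The 42 include NRP1 and SEMA3B, which passed the filter in H1299 through the overexpressing libraries, so a fall could hardly be called for them. SEMA3F, a ligand of neuropilins, differed by -2.34. SEMA3B held a mean below the filter of 10 in H1299 controls, so its difference is not given. With 1 library left out the 7 falls in A549 ranged from 4 to 10, and they were 4 without either A549 overexpressing library 1 or 3.

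Smaller lists were lower in A549 as well. Of 32 interferon-stimulated genes 16 rose and 2 fell in H1299, 4 rose and 7 fell in A549, and 15 differences were lower in A549 against 4 higher. IFITM3, a restriction factor of enveloped viruses, changed by -1.43 and 0.60. Of 21 antigen presentation genes 12 were lower in A549. Of 20 neuroendocrine genes 9 rose and 3 fell in H1299 and 5 fell in A549, all 5 of them opposite: SNAP25 of the synaptic fusion machinery (-2.56), MAP2 (-2.54), SYT1 (-2.17), the granin CHGB (-1.76) and UCHL1 (-0.42). The 5 falls in A549 ranged from 3 to 7 with 1 library left out and the 5 opposite genes from 3 to 5, the falls and opposite genes moving by over 1.5 times without A549 control 1 or overexpressing 2 or 3 and the opposite genes also without H1299 control 3.

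NRF2 targets stood apart in control level. Their median log2 ratio of A549 to H1299 controls was 2.70 in CPM. Of 43 measured, 2 rose and 14 fell in A549, 13 rose and 11 fell in H1299, and 8 fell in A549 and rose in H1299. The 14 falls in A549 were 9 without the A549 control 1 and the 11 in H1299 were 7 without the H1299 control 3. AKR1C2, an aldo-keto reductase, held 42726, 42879 and 40055 in A549 controls and 18312, 18063 and 15825 in overexpressing libraries. H1299 held 28.8, 25.6 and 38.5 and 88.3, 62.4 and 67.7. Its controls stood at 2111 CPM in A549 and 1.73 in H1299. Reads of AKR1C1 and AKR1C2, near-identical neighbours, may have been split between them by the counting. The difference was -2.48 (SE 0.21). NQO1, a classical target, fell in A549 by 0.29 on the log2 scale and was not called in H1299 (-0.05). The glutathione genes GCLC and GCLM fell in H1299 (-0.31 and -0.57), and HMOX1 rose in A549 and fell in H1299 (0.63 and -0.70).

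In several lists a median difference near 0 went with members that differed in both directions. TGF-beta response genes (30 measured) had median changes of 0.37 and 0.23, with 11 differences higher in A549 and 7 lower, 7 shared rises, 4 genes that rose in A549 and fell in H1299 and 2 of the reverse. Hypoxia and glycolysis genes (42 measured) had median changes of 0.05 in both lines, with 13 differences higher and 11 lower. The p53 targets (29) had medians of 0.04 and 0.05, with 7 higher and 9 lower, and mesenchymal genes (20) had 8 higher and 9 lower. The called share was 60.0%, 57.1%, 55.2% and 85.0% of these lists, against 41.2% of all genes, and no test was made of the lists against other genes.

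Further lists were mixed. In the cytokine and NF-kB list 6 of 26 fell in both lines, and BIRC3, an inhibitor of cell death signalling, fell further in H1299 (-0.24 and -1.85). The 8 genes of this list called in the same direction in both lines ranged from 4 to 8 with 1 library left out, moving by over 1.5 times without any A549 library except control 3. Of 28 sterol genes measured, 2 rose and 12 fell in A549, and 6 rose and 5 fell in H1299. With 1 library left out, these H1299 counts ranged from 6 to 10 and from 3 to 7. The median changes were -0.19 and 0.03, with 4 differences higher in A549 and 11 lower. INSIG1 and SREBF2 were opposite (differences of -0.81 and -0.92), and the desaturase SCD changed by -0.46 and 0.79.

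The response was related to the control level of each gene in each line. Levels were set on CPM, since the tables were normalized separately. Genes at least 4 times higher in A549 controls numbered 776. In A549 74 of these rose and 254 fell, and in H1299 414 rose and 88 fell. Their median change was -0.24 in A549 and 0.48 in H1299, and the difference was called lower in A549 in 442 of them (57.0%) against 18.5% of all genes. The 496 genes at least 4 times higher in H1299 controls showed the mirror image in A549, where 193 rose and 40 fell, and a weaker one in H1299, where 88 rose and 160 fell. Their medians were 0.30 and -0.12, and the difference was called higher in 227 (45.8%) against 22.7%. For the 13306 genes within 4 times, the median difference was 0.03.

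**Figure D5:**
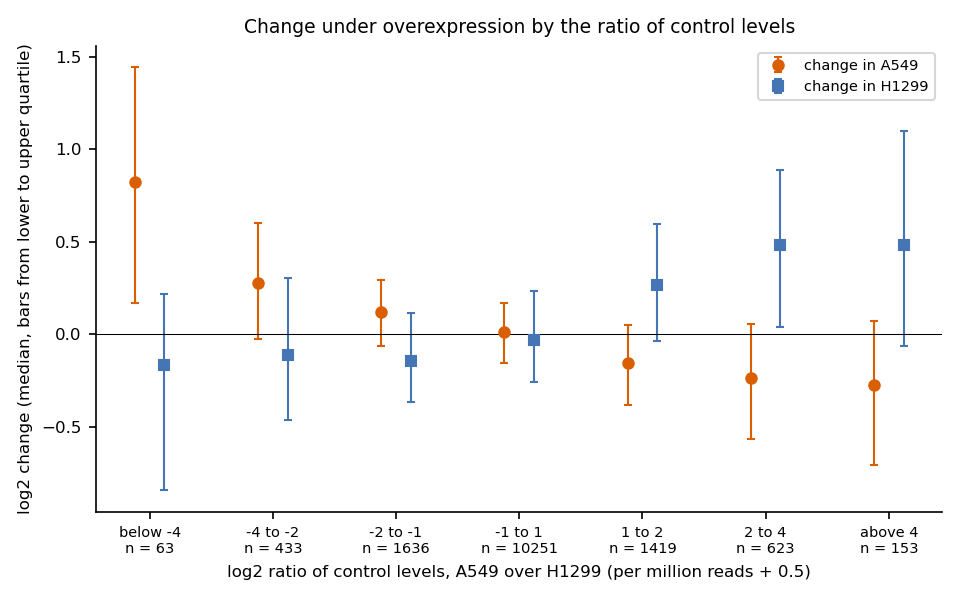
Median log2 change in A549 (circles) and H1299 (squares), with bars from the lower to the upper quartile over genes, in 7 bins of the log2 ratio of control levels (A549 over H1299, CPM plus 0.5). The A549 medians step down from 0.82 in the 63 genes of the leftmost bin to -0.27 in the 153 genes of the rightmost, and the H1299 medians lie between -0.16 and -0.03 in the 4 leftmost bins and between 0.27 and 0.48 in the other 3.

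Across the 14578 genes the Spearman correlation of the log2 ratio with the difference was -0.40, with the A549 change -0.32 and with the H1299 change 0.31, given as descriptions. In 78.2% of the 776 genes and 71.4% of the 496 the distance between the lines was narrower under overexpression than in controls. A control library enters both the level and the change, so error in the controls alone gives a relation of this sign. When the level was taken from 1 control library and the changes from the other 2, the median difference was between -0.81 and -0.67 for genes higher in A549 controls and between 0.36 and 0.48 for genes higher in H1299 controls. When the ratio was taken over all 6 libraries of each line, which weights both conditions alike, the medians were -0.51 and 0.15 and the shares with a narrower distance 66.8% and 57.2%.

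The filter on low values bears on this as well. Of the genes tested, 351 had a mean below 10 in H1299 controls and 210 in A549 controls, and these passed only because the overexpressing group was higher. Among the 351, 155 rose in H1299 and none fell, and among the 210, 63 rose in A549 and none fell. The list counts above include such genes. With genes whose mean over the 6 libraries was at least 50 in each line, 432 and 280 genes remained, and the median differences were -0.75 and 0.48.

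Direction classes differed in their control levels in the same sense. Genes that fell in A549 and rose in H1299 had a median log2 control ratio of 0.94, with 22.4% of them at least 4 times higher in A549 and 1.42% in H1299. For genes that rose in A549 and fell in H1299 the median was -0.65 and the shares 0.89% and 9.53%. Shared rises and shared falls had medians of -0.06 and 0.02. The lists did not all follow this order. Ribosome biogenesis and heat shock lists, with median ratios of -0.41 and -0.32, differed by 0.99 and 0.53, while cholesterol genes with the same ratio of -0.32 differed by -0.27, and p53 targets at 0.78 and TGF-beta response genes at 1.03 by -0.02 and 0.05.

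Base composition also went with direction. The median GC content of the transcripts was 45.3% for genes that rose in A549 and fell in H1299, 52.1% for the reverse class and 48.4% for all tested genes, over the 99.3% with a value. Shared rises were at 51.4% and shared falls at 44.1%. With a GC trend removed from each library, called differences numbered 7129, shared genes 908 and opposite genes 2302. Ribosome biogenesis then counted 31 opposite members of 40, heat shock 22 of 47, the unfolded protein response 15 of 38 and the integrated stress response 18 of 38.

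The fit shared 1 estimate of the spread between the lines, and the H1299 libraries varied more. With each line fitted alone, an alternative chosen after seeing the data, 6559 genes were called in A549 and 4302 in H1299, and of those called in both 650 moved the same way and 1828 in opposite ways. The opposite share of genes called in both lines stayed between 56.6% and 74.2% over all alternatives.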

How the data were processed

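RNA-seq libraries of A549 and H1299 cells were compared, 3 controls and 3 overexpressing HEPACAM2 in each line, grouped by the labels. Tables of 2 other lines were not used here. The deposited values are gene-level signal, which the even steps of the values show to be read counts scaled by 1 factor per library, and each line has its own table. CPM values were computed from the recovered reads. Per the submitters' processing notes the tools were CASAVA, FastQC, Trim Galore, STAR and DESeq2 with hg38, with counter, annotation and versions not given in the sources used here. Within each library 100% of the deposited values were whole multiples (within 0.01) of the value of 1 read, which gave back the reads and depth.

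Changes were tested with limma 3.58.1 (trend and robust options, R 4.3.3) on log2(value + 1), in 1 fit of 4 groups over genes with a mean of at least 10 in 1 group of each line, with Benjamini-Hochberg adjustment at 0.05. Fold changes on this scale understate the change of low genes. The procedure was tested on simulated data. The simulation gave both lines the same spread and placed changes in A549 only, so it does not cover the wider spread of the H1299 libraries. On the recovered reads, edgeR 4.0.16 called 5971 differences and DESeq2 1.42.0 called 5944. Other alternatives were another scaling, filter and pseudocount, array weights, removal of a GC trend, a replicate block, a size threshold, each line alone and leaving out libraries.

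Named genes had a mean of at least 50 in the higher group and separate libraries in each line whose change is used. They were the 8 widest opposite differences in each direction, the 6 widest shared changes in each direction, the 6 widest differences in each direction among genes called in 1 line, up to 4 members per list by the widest called difference, and HEPACAM2. A few genes that the rule covers are not reported here. Members and lists were chosen with earlier results of these data known. Promoter sequences and their positions came from RefSeq, GRCh38.p14. Gene positions came from the GENCODE annotation of GRCh38. Figures were drawn with matplotlib 3.10.9.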

Additional observations from a re-analysis of the deposited data

Results flagged for a closer look

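In 15 genes the change under overexpression ran in opposite directions in the lines, and limma's test of the difference between the changes passed its threshold. That test passed in all 1489 genes called in opposite directions, so passing does not set these 15 apart. The values are log2 differences, A549 minus H1299, with 3 libraries a group, and no explanation was tested. Genes that rose in A549 and fell in H1299 were LY6K (4.004), MARCHF4 (3.23), IL32 (3.15), SERTAD4 (2.98), FRMD6 (2.65), DUSP1 (2.65) and DOK3 (2.53). Genes that fell in A549 and rose in H1299 were PDK4 (-3.86), B3GNT3 (-3.21), ABCC3 (-3.18), KCNT2 (-3.17), CAMK2N1 (-3.11), ITGA10 (-3.09), STING1 (-3.00) and KAZALD1 (-2.96). They were selected for the size of this difference, so their sizes are a description.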

How the results depend on the processing

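Of 180 named genes, 161 kept the call and direction of the difference under every alternative other than the size threshold. Counts of calls moved more. Leaving out 1 library at a time gave 5228 to 6818 differences, 2385 to 4238 calls in A549, 5008 to 6953 in H1299, 389 to 737 shared and 1007 to 1842 opposite genes. Array weights gave 6263 calls in A549, 1293 shared and 2733 opposite. Without both H1299 libraries numbered 1 these were 6127, 1425 and 2825, and the A549 count moved because the lines share 1 estimate of the spread. Removal of the GC trend gave 908 shared and 2302 opposite genes. A change of at least 1 left 1553 differences, 422 calls in A549, 705 in H1299, 36 shared and 47 opposite. Each line alone gave 6559 in A549.

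With the replicate number as a block, the calls were 4244 for the difference, 1724 in A549, 4235 in H1299, 242 shared and 597 opposite. Same-numbered libraries did not deviate together (r of -0.03, -0.08 and 0.0036 in A549 and of -0.59, -0.22 and -0.35 in H1299). These are deviations from group means of 3 libraries, so they cannot settle whether the numbers pair the samples. Under the block the opposite genes were 5 of 47 heat shock and 13 of 40 ribosome biogenesis genes, rises in A549 were 5 heat shock, 1 DNA replication and 4 mitosis genes, and rises in H1299 were 6 of 18 collagen-modifying enzymes.

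The median difference of genes higher in A549 controls was -0.51 when grouped by all 6 libraries. For genes higher in H1299 controls it was 0.15 so grouped, 0.45 with a pseudocount of 5, and 0.36 to 0.48 with the level from 1 control.

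The differences that changed sign were not called in the main analysis, and the cause was not tested. HEPACAM2 was 0.70 with edgeR, 1.002 with DESeq2 and 0.17 with limma-voom, against -0.49. With a pseudocount of 5 it was -1.52. HEPACAM2 had 1 read in the A549 controls and 9 in the H1299 controls. Its values therefore depend on how counts near 0 are handled, and no test of them is given. MT-CO1 was -0.059, -0.044 and -0.020 with these tools and -0.0860 with the GC trend removed, and ranged from -0.17 to 0.31 with 1 library left out. CYB5B was 0.11 with array weights and 0.14 without both H1299 libraries numbered 1, and ranged from -0.0707 to 0.0705. MT-CO2 was 0.027 and 0.11 under these, and ranged from -0.37 to 0.023. Read depth limits genes near the filter, and HEPACAM2 in controls.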
